A study of Homo sapiens with 4 samples.

Results

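The regions described here were stretches of chromatin that were called as peaks in both libraries of carrier-treated tumour cells and in neither library of inflachromene-treated cells. Peaks of the 4 libraries on chromosomes 1 to 22 and X were merged where they overlapped by at least 1 bp, which gave 128195 merged regions. Of these, 2046 (1.60%) met the rule and are called Carrier-only regions. The opposite class, called in both Inflachromene libraries and in neither Carrier library, held 4666 regions (3.64%), and 50771 regions (39.6%) had a peak in all 4 libraries and are called consensus regions. The calls themselves chose the members, so the number of members and their absence from the Inflachromene libraries are a description and were not tested.

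The study followed models of pancreatic ductal adenocarcinoma under inflachromene, control treatment or loss of HMGB2. The libraries used here came from Panc1, an established human cell line of that carcinoma, labelled as pancreas in transplanted mice. Carrier 12 and Carrier 31 were the libraries of mice 12 and 31, which received the carrier alone, and Inflachromene 11 and Inflachromene 35 were those of mice 11 and 35, which received inflachromene. Each library was 1 mouse and each group 2 mice. Both groups carried the same cell line, and the labels state neither strain, age and dose nor the site of transplantation. Accessibility was read per nucleus with a droplet-based assay, and the files list human coordinates only.

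The assay for transposase-accessible chromatin (ATAC-seq) cuts DNA where it is not wrapped tightly, so that promoters, enhancers and other bound sites appear as peaks of read ends. Inflachromene is a small molecule that binds HMGB1 and HMGB2, abundant proteins that bend DNA and loosen its contact with nucleosomes. A peak caller reports a site only where its signal passes a threshold, and a site below it may still hold reads. The deposited matrices count reads in a library's own peaks, so a Carrier-only region has no count in either Inflachromene library rather than a count of 0.

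Where the members meet a promoter, their sequence shows what kind of DNA they cover. Of the 22132 promoter windows of protein-coding genes in the RefSeq table for GRCh38.p14 (250 bases before to 50 bases after a start site), 42 windows of 41 genes were overlapped by 41 Carrier-only regions. The member of highest level among them, at ACP7, touches only bases after the start site and its upstream sequence is not shown. The next 3 by level follow, each as the 250 bases before the start site, 5′ to 3′ on the gene's strand, with capitals marking matches to the GC box letters GGGCGG on either strand.
FAT1 (chr4:186723857-186724106, minus strand): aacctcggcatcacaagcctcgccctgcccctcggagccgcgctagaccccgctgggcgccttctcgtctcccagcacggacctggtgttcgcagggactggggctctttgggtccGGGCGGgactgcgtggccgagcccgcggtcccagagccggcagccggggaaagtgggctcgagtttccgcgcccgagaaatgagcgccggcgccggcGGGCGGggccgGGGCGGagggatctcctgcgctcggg
PLAC8 (chr4:83109890-83110139, minus strand): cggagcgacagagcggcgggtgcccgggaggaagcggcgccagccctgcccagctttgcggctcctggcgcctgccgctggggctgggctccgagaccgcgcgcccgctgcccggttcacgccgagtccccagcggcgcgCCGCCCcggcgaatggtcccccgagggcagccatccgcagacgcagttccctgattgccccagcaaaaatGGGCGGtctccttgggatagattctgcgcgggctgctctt
RASA1 (chr5:87268687-87268936, plus strand): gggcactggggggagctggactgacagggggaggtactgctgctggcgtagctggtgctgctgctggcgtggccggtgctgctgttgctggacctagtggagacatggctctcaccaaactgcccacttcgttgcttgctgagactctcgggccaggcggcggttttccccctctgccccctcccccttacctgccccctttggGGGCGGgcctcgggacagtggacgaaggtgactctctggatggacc

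All 250 printed bases of FAT1 and RASA1 and 166 of those of PLAC8 lie inside the member. The FAT1 and PLAC8 members lay inside their genes, 2438 and 4674 bp from the nearest outer end of a protein-coding gene. The start sites printed for these genes are thus internal ones, away from the gene's outer border. FAT1 encodes a giant protocadherin, and its member (chr4:186723399-186724258) had 12.9 CPM in Carrier 12 and 16.9 CPM in Carrier 31, where CPM is the count in a region per 1000000 counts in all peaks of the library. The member at PLAC8 (chr4:83109477-83110055) had 14.2 and 14.5 CPM. RASA1 encodes a GTPase-activating protein that switches RAS off, and its member (chr5:87268572-87269212) had 10.6 and 9.90 CPM. These promoters were rich in G and C, at 74.0% for FAT1, 72.8% for PLAC8 and 66.0% for RASA1, with 3, 2 and 1 GC box matches. None of the 3 printed stretches held any of the other motifs searched, which says nothing about the factors that bind them. An Inflachromene peak lay 1460 bp from the FAT1 member, 67 bp from the PLAC8 member and 277 bp from the RASA1 member.

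Over all 42 promoters that Carrier-only regions overlapped, the median GC content was 59.8%, beside 66.0% for 12546 promoters overlapped by consensus regions and 62.0% for all 22132. GC box letters (GGGCGG) were in 45.2% of the 42, in 70.7% of the consensus promoters and in 53.7% of all. CCAAT was in 16.7%, 34.4% and 32.7% of these 3 sets. TATAAA was in 9.52%, 4.46% and 9%, the AP-1 letters TGANTCA in 4.76%, 3.71% and 5.35%, and the E-box letters CANNTG in 54.8%, 51.1% and 58.1%. Both strands were searched, and the shares were not tested; with 42 promoters, 4.76% is 2 promoters. Other promoters in the set, chosen here after their values were seen, were those of SLC1A5, a glutamine transporter, at a mean of 8.22 CPM and of EZH2, the methyltransferase of Polycomb repressive complex 2, at 6.42 CPM. Members also covered the hairpins of 3 microRNAs, MIR7114 (mean 3.62 CPM), MIR6718 (3.88 CPM) and MIR520C (4.29 CPM).

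The 4 libraries held between 27088391 and 39947056 counts in peaks, over 2039 to 5186 barcodes, of which 939 to 2070 per library had at least 2000 counts and are called deep. Some barcode sequences occurred in more than 1 library. Carrier 12 and Inflachromene 11 shared 1209, which was 29.7% of the barcodes of Inflachromene 11; 1115 of them were deep in Carrier 12 and shallow in Inflachromene 11, where such shallow copies held 0.676% of the counts. Carrier 12 and Carrier 31 shared 357, Carrier 31 and Inflachromene 11 shared 155, and the other pairs shared 25 to 29. Without barcodes that were shallow in 1 library and deep in another, the median level of the members was 3.39 CPM and the median number of barcodes carrying a member was 56, as with them. Peaks covered 67.2 Mb in Carrier 12, 64.9 Mb in Carrier 31, 67.0 Mb in Inflachromene 11 and 82.4 Mb in Inflachromene 35, most in the last.

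Consensus regions lay at the ends of all 6 genes fixed as mesenchymal traits of Panc1 (VIM, ZEB1, CDH2, FN1, SNAI2 and AXL) and of 5 of 6 carcinoma genes, all but KRT7. Their summed levels were 281 and 291 CPM in Carrier 12 and Carrier 31 against 289 and 252 CPM in Inflachromene 11 and 35 for the mesenchymal list, and 72.4 and 67.3 against 70.7 and 69.4 CPM for the carcinoma list, so the groups overlapped in both. None of the 4 endocrine, 3 B cell or 4 Schwann cell genes had such a region. The myeloid list (5 of 7 genes with a region) summed to 85.4 and 74.3 CPM in Carrier 12 and 31 against 70.4 and 71.1 CPM in Inflachromene 11 and 35. The fibroblast list (4 of 7) summed to 153 and 158 against 150 and 135 CPM, and the T and NK list (2 of 5) to 29.5 and 27.8 against 35.7 and 33.0 CPM. The endothelial list (CLDN5 alone of 6) had 5.82 and 4.47 against 5.28 and 3.58 CPM, and the acinar list (CEL alone of 6) 2.46 and 2.46 against 2.4 and 2.1 CPM. The myeloid, fibroblast and acinar sums were higher in both Carrier libraries, and the T and NK sum in both Inflachromene libraries. The groups overlapped in the endothelial list. How often 2 libraries separate from 2 others over all consensus regions was not counted, so these separations are not read as differences. A Carrier-only region lay within 10 kb of 3 of 7 myeloid genes (CSF1R, CD14 and LYZ) and 2 of 6 endothelial genes (VWF and TEK). One also lay near 1 of 7 fibroblast genes (PDGFRB), 1 of 6 mesenchymal genes (CDH2) and no gene of the other lists. Over all protein-coding genes the share was 8.08%. The sums take any consensus region within 1 kb of either outer end of a gene, also where it belongs to a neighbouring gene. They are counts at human coordinates from a human cell line in mice, so they do not measure host cells. The part of these markers in the members was not tested.

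Most Carrier-only regions were weak peaks. Their median level was 3.57 CPM in Carrier 12 (119 counts, 64 barcodes) and 3.24 CPM in Carrier 31 (95 counts, 48 barcodes), against 10.3 and 9.52 CPM for consensus regions. Counts per member ran from 27 to 1967 in Carrier 12 and from 22 to 1173 in Carrier 31. The middle 80% of members lay between 2.28 and 7.29 CPM in Carrier 12 and between 2.05 and 6.78 CPM in Carrier 31. Regions called in both Carrier libraries and 1 Inflachromene library were close to these levels, with medians of 3.93 and 3.58 CPM where the third library was Inflachromene 11, and 4.08 and 3.82 CPM where it was Inflachromene 35. Regions called in a single Carrier library were lower, at 3.03 CPM for Carrier 12 and 2.76 CPM for Carrier 31. Members were as wide as consensus regions, with medians of 924 and 936 bp.

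A small number of members were strong. The mean of the 2 Carrier libraries was at least 5 CPM for 471 members (23%), at least 10 CPM for 75 (3.67%) and at least 20 CPM for 11 (0.538%). As a scale for these levels, the weakest 5% of regions called in the Inflachromene libraries lay under 1.92 CPM in Inflachromene 11 and under 1.68 CPM in Inflachromene 35. Both Carrier libraries were above 1.92 CPM for 1868 members (91.3%), and above 3 times that level for 284 (13.9%). The weakest 5% of called regions lay under 2.31 CPM in Carrier 12 and under 2.15 CPM in Carrier 31. A member is a called region in both, so the share above 1.92 CPM is largely set by the rule. It does not show whether such sites would be called under inflachromene. At least 20 CPM in every library that called the region was reached by 10 Carrier-only regions (0.489%), by 14 Inflachromene-only regions (0.3%) and by 24 (0.272%) and 18 (0.257%) of the regions called in Carrier 12 or Carrier 31 alone. The same level was reached by 11353 consensus regions (22.4%).

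The 2 Carrier mice gave similar levels for most members, which were chosen for a peak in both. Regions called in Carrier 12 alone (8808) or in Carrier 31 alone (7009) were left out by the rule. The agreement is therefore partly set by the choice of members. Across the 2046 regions the log2 CPM of Carrier 12 and Carrier 31 had a Pearson r of 0.897 and a Spearman correlation of 0.856, beside an r of 0.976 across consensus regions, which cover a wider range of levels. These are descriptions across regions of the same pair of libraries, and regions are not replicates. The SD of the log2 ratio between the mice was 0.32 for members and 0.30 for consensus regions, and 21 members differed by more than 2-fold. The plot of both levels shows the strong members near the line of equal level, with the region in MTAP as the strongest.

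**Figure D1:**
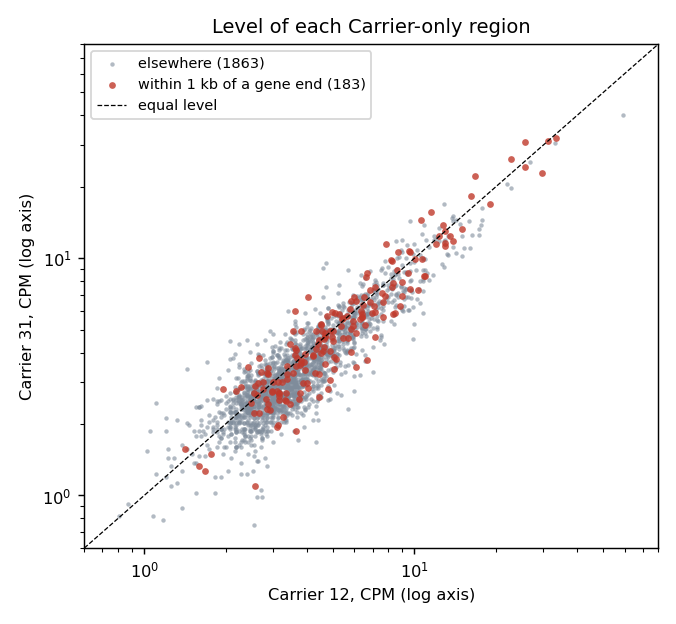
CPM of each of the 2046 Carrier-only regions in Carrier 12 (x axis) and Carrier 31 (y axis), both on log axes, with regions within 1 kb of a gene end in red (183) and the others in grey (1863). Most points lie between 2 and 7 CPM in both mice and follow the line of equal level.

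The strongest Carrier-only region lay inside MTAP, which encodes the methylthioadenosine phosphorylase of methionine salvage and neighbours the CDKN2A tumour suppressor. It spanned chr9:21812485-21813328 and had 1967 counts from 796 barcodes (59.0 CPM) in Carrier 12 and 1173 counts from 412 barcodes (40 CPM) in Carrier 31. Both values were above those of every other member in the same library. An Inflachromene peak began 279 bp away. That peak was part of a consensus region (chr9:21813608-21814388) with 53.7 and 44.4 CPM in Carrier 12 and 31 and 43.2 and 36.2 CPM in Inflachromene 11 and 35. Accessible chromatin was therefore called in all 4 libraries next to this member, and the Inflachromene values were the lower ones, with a log2 fold change of -0.31 (SE 0.17, adjusted p = 1, edgeR's quasi-likelihood test), which was -0.16 without Carrier 12, -0.19 without Inflachromene 35 and -0.44 without either of the other libraries.

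Genes of the immediate early response, which are transcribed within minutes of growth factor signals, had 2 of the strongest members. FOS encodes a subunit of the AP-1 transcription factor, and its member (chr14:75282556-75283528) lay 326 bp past an outer end of the gene and 3728 bp from a listed start site. It had 29.7 CPM in Carrier 12 and 23 CPM in Carrier 31. The member at IER2, another immediate early gene, lay 174 bp past the gene (chr19:13155085-13155981), 4674 bp from a start site, and had 22.8 and 26.1 CPM. Neither region overlapped a promoter window of the table, and both had an Inflachromene peak nearby, at 312 bp for FOS and at 1530 bp for IER2.

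Transcription and signalling genes also had strong members at or near an outer end. FOXD1 encodes a forkhead transcription factor, and its member (chr5:73447220-73448229), inside the gene and 548 bp from its end, had 25.7 and 30.8 CPM in Carrier 12 and 31. The member inside ARHGDIA (chr17:81868390-81869227) had 31.3 CPM in each mouse. GABPB2 encodes a subunit of an ETS-family factor, and its member (chr1:151070864-151071336) had 25.6 and 24.3 CPM. The member inside EFNA3, an ephrin ligand (chr1:155086000-155086702, also part of the EFNA4-EFNA3 readthrough gene), had 14.9 and 13.2 CPM. Carrier 31 was higher at FOXD1 and lower at GABPB2 and EFNA3, so no mouse was higher throughout.

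The other 4 of the 10 strongest members at a gene end included genes of metabolism and translation. CYP27C1, a cytochrome P450 that acts on retinoids, had 16.7 and 22.2 CPM (chr2:127218682-127219628). EIF4A2, an RNA helicase of translation initiation, had 16.3 and 18.3 CPM (chr3:186783979-186784378), 97 bp from an Inflachromene peak. ACP7, an acid phosphatase, had 33.5 and 32.1 CPM (chr19:39084371-39085359), the highest mean among members within 1 kb of a gene end. CLC, which encodes galectin-10 of eosinophils, had 19 and 17.0 CPM (chr19:39736780-39737721).

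The remaining members described among those of highest level lay away from gene ends. One was 12175 bp from MAP3K10, a kinase upstream of JNK (chr19:40178360-40179251; 33.1 and 30.6 CPM), and another was inside that gene (chr19:40210548-40211456; 22.8 and 19.8 CPM). A region 11740 bp from GNGT2, a G protein subunit of cone cells, had 26.8 and 25.4 CPM (chr17:49193804-49194494). Inside C19orf47 the values were 22.1 and 20.7 CPM (chr19:40297604-40298489). The lower value of each of the 14 strongest regions was at least 16.3 CPM.

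**Figure D2:**
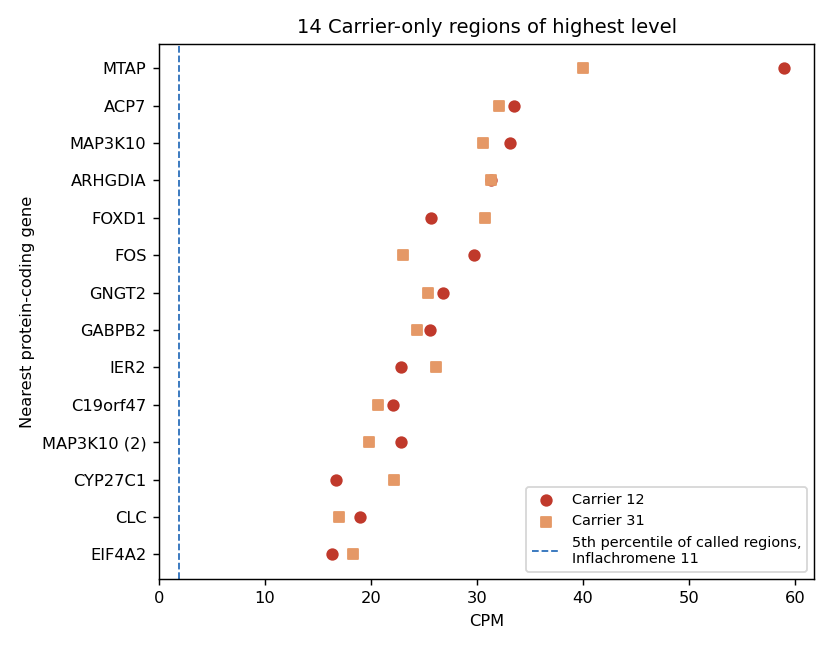
CPM of the 14 Carrier-only regions of highest mean level in Carrier 12 (circles) and Carrier 31 (squares), by nearest protein-coding gene, with the level under which the weakest 5% of regions called in Inflachromene 11 lay (dashed line, 1.92 CPM). The region in MTAP stands highest in both mice, at 59.0 and 40 CPM, and the others lie between 16.3 and 33.5 CPM.

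Of the 30 strongest members, 6 came from a single stretch of chromosome 19, chr19:38710489-40298489, 1.59 Mb long, whose bounds were set after these values were seen. It held 12 Carrier-only regions among 283 merged regions (4.24%) and 4 Inflachromene-only regions. Its members had a median of 13.9 CPM. Among them were the regions at ACP7, MAP3K10, CLC and C19orf47, and one in ACTN4, an actin crosslinker, at 17.4 and 13.3 CPM. The 124 consensus regions of the stretch were also above the genome-wide level in every library, with medians of 49.1, 40.8, 45.3 and 41.7 CPM in Carrier 12, Carrier 31, Inflachromene 11 and Inflachromene 35, against 10.3, 9.52, 9.23 and 9.69 CPM over all consensus regions. Their median log2 fold change between the groups was -0.02. The part of this high local level in the strength of its members was not tested.

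By the rule, members could abut an Inflachromene peak as long as they did not overlap it. The members just inside this limit were in UCK2 (gap of 0 bp; 5.43 and 4.37 CPM), TRHDE (0 bp; 10.1 and 8.94 CPM) and FRMD4A (1 bp; 7.83 and 6.76 CPM). The regions just outside it were in PDZD8, where 32 bp overlapped (5.43 and 3.38 CPM in Carrier 12 and 31, 6.33 CPM in Inflachromene 35), next to CDH3 with 43 bp (7.11, 5.22 and 6.38 CPM) and in CEP41 with 56 bp (2.37, 2.94 and 2.95 CPM). Overlaps of at most 100 bp left out 7 regions, and gaps of at most 100 bp were found for 77 members (3.76%).

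Most members had an Inflachromene peak within a few kilobases. The median gap was 3062 bp, and 302 members (14.8%) were within 500 bp, 517 (25.3%) within 1 kb and 2003 (97.9%) within 50 kb. For Inflachromene-only regions, measured to the nearest Carrier peak, the median gap was 4624 bp, with 10.1% within 500 bp and 17.9% within 1 kb. The called territory that each class is measured against differs, so the 2 medians are given side by side and were not compared. Stronger members were closer to an Inflachromene peak: 14.7% of the 760 members under a mean of 3 CPM were within 1 kb of one, 23.6% of 815 between 3 and 5 CPM, 43.2% of 396 between 5 and 10 CPM and 56.0% of the 75 at 10 CPM or more.

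Carrier-only regions lay mostly away from promoters, as Inflachromene-only regions did. The gene table gives the ends of a gene without its strand, so a gene end here means any outer border of a gene that codes for protein. Of the 2046 members, 183 (8.94%) were within 1 kb of one, against 25.8% of consensus regions, 14.5% of all merged regions and 7.12% of Inflachromene-only regions. The promoter table holds no start site on chromosome 8. On the other chromosomes 110 of 1987 members (5.54%) lay within 1000 bp of one, against 22.5% of consensus and 5.40% of Inflachromene-only regions. Near a gene end but not a start site were 99 members (4.98%), beside 6.63% of consensus and 3.43% of Inflachromene-only regions. The start site share thus sat beside that of the opposite class, and far under that of consensus regions, while the share at other gene ends differed less.

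More than 1 in every 2 members (1150, 56.2%) overlapped a protein-coding gene, 609 (29.8%) lay outside but within 50 kb and 287 (14%) were farther away. The share beyond 50 kb was 12% for consensus regions and 20.1% for Inflachromene-only regions. Exons and introns could not be told apart with the annotation used here. Level and place moved together within the members: 4.74% of those under 3 CPM were at a gene end, 7.98% at 3 to 5 CPM, 14.9% at 5 to 10 CPM and 30.7% at 10 CPM or more, and the share inside a gene was 50%, 56.6%, 63.6% and 76.0% in the same groups. The location of a class is tied to its level, and these shares are descriptions without a test.

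**Figure D3:**
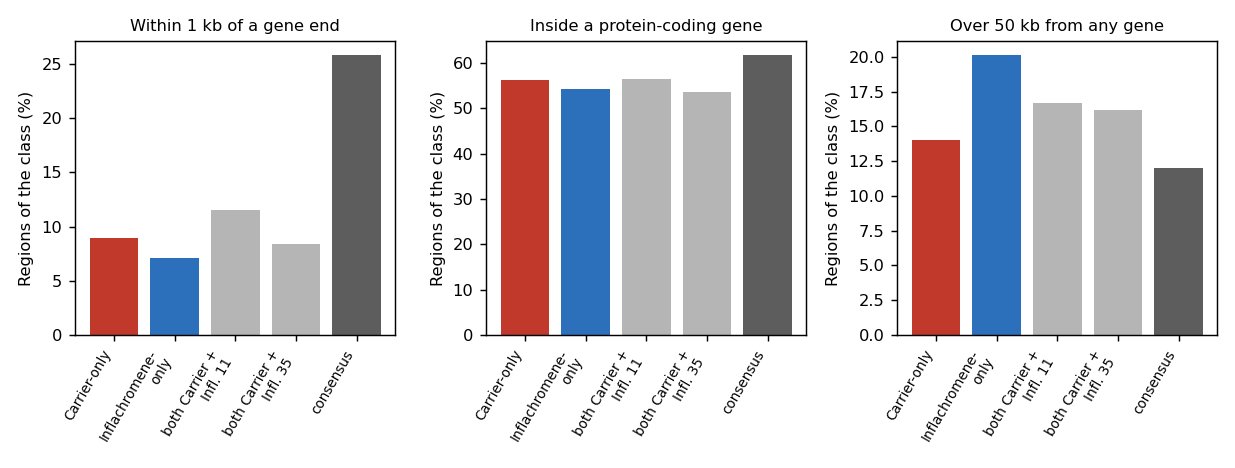
Share of regions within 1 kb of an outer end of a protein-coding gene (left), overlapping a protein-coding gene (middle) and over 50 kb from one (right), for Carrier-only regions, Inflachromene-only regions, regions of both Carrier and 1 Inflachromene library, and consensus regions. At gene ends the Carrier-only share (8.94%) is near that of the Inflachromene-only regions (7.12%) and under that of consensus regions (25.8%).

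Members were found on every chromosome examined. Their share of merged regions was lowest on chromosome 13 (24 regions, 1.03%) and highest on chromosomes 19 (121, 2.25%), 17 (141, 2.23%) and 9 (97, 2.03%). In windows of 10 Mb with at least 20 merged regions (305 windows), the median share was 1.42%, and 23 windows held no member. The 5 windows of largest share were 140 to 150 Mb of chromosome X (4 of 74 regions, 5.41%), 170 to 180 Mb of chromosome 6 (3 of 62, 4.84%), 130 to 140 Mb of chromosome 12 (11 of 231, 4.76%), 20 to 30 Mb of chromosome 19 (8 of 178, 4.49%) and 20 to 30 Mb of chromosome 9 (11 of 262, 4.20%). With so few regions per window, a single region moves these shares visibly.

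The window on chromosome 9 holds MTAP. Its 96 consensus regions had a median log2 fold change, Inflachromene against Carrier, of -0.36, the lowest of the 297 windows with at least 20 consensus regions. It was -0.23 without Carrier 12 and -0.46 without Carrier 31. Without Inflachromene 35 it was -0.40, and the window of 20 to 30 Mb on chromosome 12 was then lower, at -0.41. Over these windows, the share of Carrier-only regions and the median log2 fold change of consensus regions had a Spearman correlation of -0.332, and the share of Inflachromene-only regions had one of 0.470. These were weaker without Inflachromene 35, at -0.163 and 0.171. In the 75 windows of lowest fold change (from -0.36 to -0.02), 1.96% of merged regions were Carrier-only and 3.02% Inflachromene-only. In the 74 windows of highest fold change (from 0.05 to 0.31), the shares were 1.25% and 4.42%. Shares and fold changes come from the same 4 libraries, so this is a description with no p. Windows where consensus regions were lower under inflachromene thus held a larger share of Carrier-only regions. Exceptions occurred, such as 130 to 140 Mb of chromosome 2 (0.175, 3.23%). Fold changes extended over adjacent windows in places. On chromosome 9, 10 to 20 Mb was at -0.28 (15 of 476 regions, 3.15%), 30 to 40 Mb at -0.05 and 0 to 10 Mb at 0.0059. On chromosome 3, 0 to 10 Mb and 10 to 20 Mb were at 0.31 and 0.26, with shares of 0.664% and 0.512%. The cause was not tested.

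**Figure D4:**
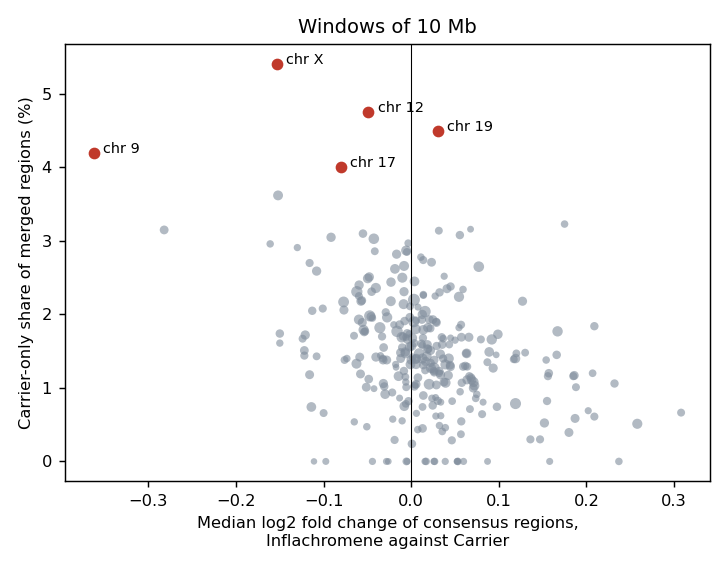
Share of merged regions that were Carrier-only in each of 297 windows of 10 Mb (y axis) against the median log2 fold change of the window's consensus regions, Inflachromene against Carrier (x axis); larger points hold more merged regions and the 5 highest shares plotted are in red. The window of chromosome 9 lies farthest to the left, at -0.36, with 4.20% Carrier-only regions; the window of chromosome 6 had fewer than 20 consensus regions and is not plotted.

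Long genes held the most members. A Carrier-only region overlapped 1056 of 19974 protein-coding genes, whose median length was 92.5 kb against 24.2 kb for all, and 99 genes held 2 or more. GRIP1, a scaffold of glutamate receptors 722 kb long, held 5 members among 45 merged regions, with means from 1.57 to 3.52 CPM. CCDC171, FMN2, FRMD4A and LMNTD1 held 4 each, as did PTPRN2, SDK1 and ZNF407. Among the 8 genes with 4 or more members, LMNTD1 had most per 100 kb (2.32, with means from 3.85 to 10.5 CPM), followed by FMN2, an actin nucleator (1.04), and ZNF407, a zinc finger protein (0.855). LMNTD1 lies between 20 and 30 Mb of chromosome 12, a window with 26 members among 719 merged regions (3.62%).

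A gene list was read by how many of its genes had a Carrier-only region inside or within 10 kb. This was so for 1613 of 19974 protein-coding genes (8.08%), and for 13.5% with Inflachromene-only regions. Among 22 immediate early genes and feedback regulators of MAPK signalling, 5 had one (22.7%): beside FOS and IER2 these were JUND, another AP-1 subunit (6.36 and 6.66 CPM in Carrier 12 and 31, 2773 bp from the gene), ETV5, an ETS factor (6.66 and 3.72 CPM, 800 bp from the gene), and SPRED2, an inhibitor of the pathway (4.35 and 4.68 CPM). The same list had an Inflachromene-only region at 4 genes. Of 14 genes of the EGF receptor family and its ligands, 3 had a member, with 7.92 and 7.37 CPM inside EGFR, 4.20 and 3.21 CPM inside NRG2 and 2.40 and 2.39 CPM inside EGF. Inflachromene-only regions were at 2 of these 14.

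Chromatin architectural proteins include HMGB1 and HMGB2, which inflachromene binds. Of 14 genes of this list, 3 had a Carrier-only region and 6 an Inflachromene-only one. The member 1115 bp from HMGB1, a gene whose protein is released by dying cells (chr13:30454660-30455589), had 4.68 and 3.99 CPM, with an Inflachromene peak 316 bp away. HMGA2, an AT-hook protein, held one of 7.65 and 6.28 CPM, and HMGB3 had one 7043 bp away (3.21 and 2.05 CPM). No region near HMGB2 was a member.

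In the WNT pathway 4 of 22 genes had a member, at TCF7L2 (7.26 and 6.42 CPM), WNT7B (3.90 and 5.05 CPM), TCF7L1 and CTNNB1. Of 18 integrins, 2 had one, with 6.57 and 5.02 CPM inside ITGB1 and 2.16 and 2.73 CPM near ITGA9. The TGF-beta and BMP list had 2 of 22, at SKIL, a repressor of SMAD signalling (5.73 and 5.32 CPM), and SMAD3 (5.34 and 5.12 CPM). For hypoxia and glycolysis it was 2 of 18, with SLC2A1, the glucose carrier GLUT1, at 8.67 and 8.57 CPM and LDHA at 5.04 and 3.82 CPM. LDHA was also the single gene of 19 in the list of MYC targets.

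Extracellular matrix genes had a member at 3 of 23 (TNC, COL5A1 and LAMA3, all under 4 CPM), against 8 with an Inflachromene-only region. Neuronal adhesion genes, which are long, had one at 4 of 26, among them SLIT3, UNC5C and CDH4. Of the cell cycle lists, G1/S had 2 of 24 (the EIF4A2 region, 5522 bp from RFC4, and one near PCNA), and G2/M 2 of 24, near KIF23 (7.77 and 9.69 CPM) and TOP2A (4.02 and 4.61 CPM). A single gene had a member among 17 regulators of epithelial-mesenchymal transition (CDH2), 16 YAP and TEAD targets (CRIM1), 15 apoptosis genes (HRK) and 15 housekeeping controls (PPIA). No gene had one among 18 NF-kB targets, 18 interferon response genes or 18 pancreatic lineage transcription factors. Inflachromene-only regions, the larger class, were at 9 YAP and TEAD targets, 9 neuronal adhesion genes, 8 integrins and 7 TGF-beta and BMP genes. They were at 6 epithelial-mesenchymal transition regulators, and at 5 genes each of the WNT, hypoxia and MYC lists. Apoptosis had 4, pancreatic factors and housekeeping controls 3 each, G1/S 2, and G2/M, NF-kB targets and interferon response none. The lists differ in gene length, most have few genes with a member, and no list was tested.

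Consensus regions beside the members could be compared between the groups, since all 4 libraries have counts there. Over all 50771 consensus regions, edgeR's quasi-likelihood test called none at an adjusted p under 0.05 (0%), 2274 had an unadjusted p under 0.05, and DESeq2 called 28 of 43880 (0.0638%), all higher under inflachromene. The count depended on the libraries: it was 5 (0.00985%) without Carrier 31, 3180 (6.26%) without Inflachromene 11, 299 (0.589%) without Inflachromene 35 and 0 without Carrier 12, where a group left with 1 library is assumed to vary like the other. None of the 7540 consensus regions within 50 kb of a member (14.9%) was called. Their median log2 fold change was -0.01 against 0.01 over all, and 52.6% of them were below 0, against 48.3% over all and 42.8% within 50 kb of an Inflachromene-only region. The 1964 within 10 kb of a member leaned the same way by less, with a median of -0.0039 and 50.8% below 0. The 326 within 1 kb went the other way, with a median of 0.02 and 45.7% below 0. Of the 7540 within 50 kb, 2.07% had an unadjusted p under 0.05 (edgeR) with a lower value under inflachromene, beside 1.44% of all. With a higher value it was 2.15%, beside 3.04% of all. The lower and higher shares were 1.43% and 2.34% within 10 kb, and 1.23% and 3.07% within 1 kb. The members were chosen with the same contrast, so these values are a description.

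Around the 15 strongest members, the nearest consensus region had a log2 fold change from -0.31 at MTAP to 0.18 at CYP27C1. Single libraries moved both ends of this range. MTAP stayed below 0, at -0.16 without Carrier 12, -0.19 without Inflachromene 35 and -0.44 without either of the other libraries. CYP27C1 changed sign, at -0.31 without Inflachromene 35. It was 0.54 without Inflachromene 11, 0.28 without Carrier 12 and 0.10 without Carrier 31. The median was -0.04, 10 of 15 were below 0 and each adjusted p was 1 (edgeR). At ACP7 the nearest consensus region, 699 bp away, had 45.9 and 35.2 CPM under carrier and 36.5 and 30 CPM under inflachromene, so the groups overlapped. At FOS it had 62.6 and 72.0 CPM against 74.3 and 69.0 CPM, and at IER2 44.7 and 45.9 CPM against 47.8 and 41.9 CPM, and the groups overlapped at both. A consensus region has a peak in all 4 libraries by definition. The nearest one to a member lay from 81 bp away at FOXD1 to 27478 bp away at CLC.

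The lowest fold changes within 50 kb of the 15 lay near the GNGT2 and MTAP members. The regions named here were picked for these low values. A consensus region with B4GALNT2 as nearest gene (chr17:49181385-49182285) lay 11518 bp from the GNGT2 member. It had 5.43 and 4.78 CPM in Carrier 12 and 31 and 3.13 and 2.95 CPM in Inflachromene 11 and 35 (log2 fold change -0.75, SE 0.25, unadjusted p = 0.0135, edgeR adjusted p = 1). One with PHOSPHO1 as nearest gene (chr17:49227162-49228112), on the other side of the same member, had 29.3 and 25.8 CPM against 18.6 and 21.2 CPM (log2 fold change -0.47). Another 3 regions, outside MTAP and about 30 kb from its member (the nearest at chr9:21781988-21782662), had log2 fold changes of -0.40, -0.40 and -0.38. Single libraries moved 2 of these: the first was -0.25 without Carrier 31, and the last was -0.01 without Inflachromene 11 and -0.92 without Inflachromene 35. The window's own median was -0.36 for MTAP and -0.06 for GNGT2, so the 3 values near MTAP were close to that of their window and the 2 beside GNGT2 were lower than theirs.

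Nearly every deep barcode carried counts in Carrier-only regions. A deep barcode has at least 2000 counts, and members took 0.905% of counts in Carrier 12 and 0.834% in Carrier 31. A share near 100% therefore follows largely from depth. Inflachromene-only regions likewise had counts in 100% of deep barcodes of both Inflachromene libraries. At least 1 count in a member was found in 3939 of 5186 barcodes of Carrier 12 (76.0%, with a 95% interval of 74.8 to 77.1% by the exact Clopper-Pearson method) and in 1713 of 2039 of Carrier 31 (84.0%, interval 82.3 to 85.6%). These intervals cover counting error only. Among deep barcodes it was 2070 of 2070 and 938 of 939, and among shallow ones 60% and 70.5%. Deep barcodes held 97.6% and 98.5% of the counts in members. A deep barcode had counts in a median of 78 members in Carrier 12 (80% of barcodes between 37 and 110, at most 190) and 135 in Carrier 31 (between 9 and 239, at most 382).

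Member counts followed the counts of a barcode as a whole. Members took 0.905% of all counts in Carrier 12 and 0.834% in Carrier 31, and the median deep barcode had 0.919% and 0.802%. The 10% of barcodes with most counts held 31.4% and 37.6% of the member counts, against 33.8% and 40.5% of all counts. Of the counts outside consensus regions, members took 7.47% and 8.20%, beside 7.49% and 8.38% of the regions outside consensus regions. Their share of a library's counts was thus about what their number among weaker regions gives.

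Each member rested on many barcodes. In Carrier 12 a member was carried by 16 to 796 barcodes with a median of 64, and in Carrier 31 by 13 to 412 with a median of 48. The barcode with most counts in a member gave a median of 3.08% of its counts in Carrier 12 and 4.60% in Carrier 31, and at most 11.5% and 17.4%. The mean count per carrying barcode had a median of 1.86 and 2.0 over members, against 2.01 and 2.25 over consensus regions. Since both ends of a fragment are counted, 2 counts are often 1 fragment, and 3 counts or more were found in a median of 4 barcodes per member. Counts summed over a library cannot tell fewer nuclei with an open site from less open chromatin in each.

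Deep barcodes were grouped on consensus regions alone, so that the members had no part in the clusters. The clusters are numbered and were not given cell types. Cluster 1 held 46.4% and 42.9% of deep barcodes in Carrier 12 and 31, against 10.5% and 14% in Inflachromene 11 and 35. Cluster 6 held 0.145% and 0.213% against 1.63% and 23.7%, and cluster 8 held 4.64% and 5.22% against 5.29% and 3.5%. These differences in make-up were not tested. The share of counts in Carrier-only regions was 0.928% in Carrier 12 and 0.852% in Carrier 31 for cluster 1, 0.910% and 0.810% for cluster 2, and 0.650% and 0.591% for cluster 4. Among the clusters with at least 10 deep barcodes in both Carrier libraries it was highest in cluster 8, at 1.24% and 1.17%. Both mice thus gave the clusters nearly the same order. Cluster 8 also had the lowest share of counts in consensus regions, 83.9% and 86.5%. As a share of the counts outside consensus regions, the members ranged over these clusters from 7.03% to 7.98% in Carrier 12 and from 7.81% to 9.19% in Carrier 31. Clusters 5, 6 and 9 had fewer than 10 deep barcodes in at least 1 Carrier library; cluster 9, with 130 in Carrier 31, had 4.92% there.

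**Figure D5:**
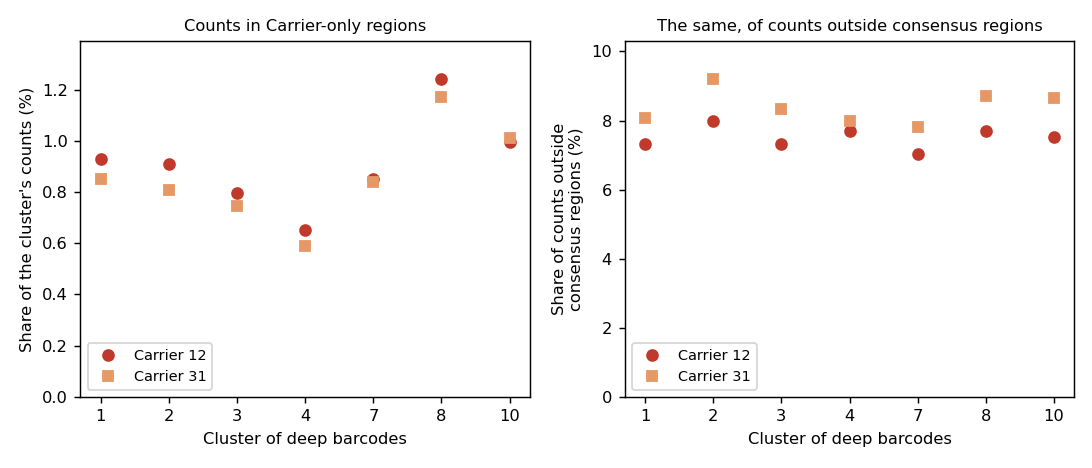
Share of counts in Carrier-only regions for each cluster with at least 10 deep barcodes in both Carrier libraries, of all the cluster's counts (left) and of its counts outside consensus regions (right), in Carrier 12 (circles) and Carrier 31 (squares). On the left cluster 8 is highest (1.24% and 1.17%) and cluster 4 lowest (0.650% and 0.591%), and on the right the clusters of a library lie closer together.

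Single members leaned to a cluster in a number of cases. Of 1967 members with at least 50 counts in each Carrier library, 359 had at least 2 times their expected share of counts in some cluster in both mice, and 281 of these did so in cluster 8. That was 18.3% of the members, beside 17% of 1576 regions called in both Carrier libraries and Inflachromene 11 and 14.5% of 4495 called in both and Inflachromene 35. In cluster 8 the shares were 14.3%, 12.8% and 9.28%, so weak regions of other classes leaned to it as well. The expected share is the cluster's part of all consensus counts, 2.1% in Carrier 12 and 2.4% in Carrier 31 for cluster 8. The member 43368 bp from LGI1, a secreted protein of synapses, had 13 of 75 counts (17.3%) and 14 of 79 (17.7%) in cluster 8. The one 102174 bp from SPDL1, a spindle protein, had 15 of 97 (15.5%) and 13 of 69 (18.8%). Members in CCDC73, ZNF236 and the overlapping genes DNAI7 and IRAG2 followed, with 10 to 18 counts in that cluster per library. Since 2 counts are often 1 fragment, such a leaning rests on few fragments in each mouse.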

How the data were processed

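Panc1 nuclei of 2 Carrier and 2 Inflachromene mice were profiled by droplet single-cell ATAC-seq (10x), per the labels' protocols. For each library the authors deposited peaks and whole-number counts per peak and barcode, without normalization; the build GRCh38 and the tools Cell Ranger ARC and Cell Ranger ATAC 2.1.0 are named in the submitters' processing notes, and the settings of peak calling are not given. Between 82.4% and 84.9% of entries are even, as when both fragment ends are counted.

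Peaks were merged at 1 bp of overlap and positions written from 1. Counts were summed over a library's own peaks and all barcodes; CPM divides by all counts in peaks. Genes, promoters and microRNAs come from RefSeq (GRCh38.p14). Consensus regions were tested with edgeR 4.0.16 (TMM, filterByExpr, quasi-likelihood F test, Benjamini-Hochberg, 0.05), checked on simulated data, and DESeq2 1.42.0. With 2 mice per group, p-values measure the spread between these libraries. Deep barcodes were clustered by latent semantic indexing without component 1 and the Leiden method (leidenalg 0.10.2, resolution 0.5); no doublet caller was run.

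The members and gene lists were chosen with earlier results of these data known. Named were the 15 strongest members, the 10 strongest at gene ends, the 5 genes with most members and the 3 densest, up to 3 genes per list, 3 regions on each side of the rule's limit, 5 windows, 5 neighbours, 5 members by cluster and up to 4 promoters; an item that this rule names is not reported here, though counts and medians include it. Alternatives were other gene distances, denominators, count minimums, merging rules, resolutions and left-out libraries.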

Additional observations from a re-analysis of the deposited data

How the results depend on the processing

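Of 66 values recomputed under alternatives, 47 stayed within the main value's error or within 1.5 times a main count. A reversal of sign was looked for in the window correlations alone, and none was found there. The number of Carrier-only regions (2046) was between 3692 and 10898 when a library was left out, since the rule then asks for less: 9088 without Carrier 12, 10898 without Carrier 31, 3692 without Inflachromene 11 and 6619 without Inflachromene 35. Consensus regions called ranged from 0 to 3180 in the same settings, and DESeq2 called 28; the cause was not tested. The gene-end share (8.94%) was 25.7% within 5000 bp, 16.2% with all genes of the table, and 7.38% to 10.1% with a library left out. The share inside a gene was 53.1% to 56.3%. The median level was 3.81 CPM with consensus counts as denominator, and the median number of carrying barcodes was 44 at 2 or more counts and 4 at 3 or more. The median log2 fold change of neighbours (-0.012) lay between -0.046 and -0.0087 with a library left out. It changed sign with DESeq2 size factors, at 0.00092, which is within the error used for it (0.0165). These size factors move the median of all consensus regions from 0.0092 to 0.023. The highest share over clusters was 1.32% when barcodes were thinned to 2000 counts, an alternative chosen after seeing the data, as were the other resolutions, the removal of shared barcodes and the window correlations without single libraries. No paired analysis was possible because the mouse numbers are not shared between the groups. Regions without a peak in a library have no count there, so the signal of the members under inflachromene was not analysed here.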
